A study of Mus musculus with 12 samples.

Results

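Cutaneous squamous cell carcinomas (cSCC) that arose in TAp63-/- mice under ultraviolet radiation were compared with untreated TAp63-/- skin. The comparison used 7 of the 12 libraries of the series, 4 tumours and 3 skins, chosen by their genotype and tissue labels. TAp63-/- mice lack the p63 isoforms that carry the transactivation domain, and all 7 libraries share this deletion. The strain was C57Bl6 throughout. The tumours came from mice older than 35 weeks that had received ultraviolet radiation (UVR) at 2.5 kJ/m2, 3 times a week. The skin was dorsal skin of shaved, untreated mice aged 4 weeks. Wild-type (WT) tumours (n = 2, same UVR and age) and WT skin (n = 3, untreated, 4 weeks) served to ask whether the tumour-skin difference differed between genotypes. RNA was total RNA of whole frozen tissue, so fewer cells of a type and less RNA per cell cannot be told apart. Tissue, age and UVR changed together between the groups and cannot be told apart either.

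The p63 gene, Trp63, is transcribed from separate promoters into TA isoforms and into ΔN isoforms that lack the transactivation domain. ΔNp63 is the main form of the basal layer of the epidermis, where it keeps keratinocytes able to divide. TAp63 has been studied as a tumour suppressor, and the title of the series ties it to microRNAs that hold back cSCC. This carcinoma arises from keratinocytes of the epidermis and follicle, and chronic ultraviolet light is its main cause. Keratinocytes that divide and migrate after wounding replace the keratins of resting epidermis with Krt6, Krt16 and Krt17, the alarm keratins, which cSCC also makes.

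Values are in FPKM, a read count divided by transcript length and library size, and were inferred to be quantile-normalized. They are listed in the order of tumours 1 to 4 and skins 1 to 3, which only names the libraries. From 13019 to 13073 symbols were at 1 FPKM or more in a library. A quantile normalization brings such counts close together, so they do not compare detection between libraries, and the depth behind the values is not known. Over genes, the correlation (Pearson's r) of log2 levels was 0.868 to 0.917 between tumours, 0.916 to 0.961 between skins and 0.718 to 0.830 between a tumour and a skin, and genes are not independent replicates. The median standard deviation of a gene on the log2 scale was 0.39 over tumours and 0.24 over skins. Read from Xist and 4 Y-linked genes, tumour 1 and all TAp63-/- skins were male and tumours 2 to 4 were female. A fit with sex as a term therefore rests on the 1 male tumour, and its counts are given beside those of most lists it moved by over 1.5 times. Both WT tumours were read as female and all WT skins as male, so tissue and sex cannot be told apart in WT mice. Skin 1 stood apart from skins 2 and 3. The mean log2(FPKM + 1) of the hair shaft and sheath list was 0.81 there against 4.54 and 5.97. That of the adipocyte list was 7.05 against 5.01 and 5.04. The labels do not say that each library is a separate animal, so p-values measure the spread between these samples, which may be technical. The value of Trp63 sums all isoforms and does not check the deletion.

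Tumours differed from skin at 4017 of 14752 tested genes (27.2%, limma, Benjamini-Hochberg adjusted p below 0.05). Of these, 1920 (13%) were higher in tumours and 2097 (14.2%) lower, and 928 and 1532 of them changed at least 2-fold. The median log2 change of all tested genes was 0.10. Genes below are the ones of smallest p in each list, and the further members given as examples were picked after their values were seen. The 4 tumours lay entirely above the 3 skins at 2621 genes (17.8%) and entirely below them at 2388 genes (16.2%). Without skin 1 the count of changed genes was 2432, without skin 2 it was 2702, and with sex as a term it was 1939. Genes of the wound-type keratinocyte, stefins, S100a9 and Defb14 led the increases. Genes of striated muscle, a keratin of resting epidermis and a β-defensin led the falls.

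**Figure D1:**
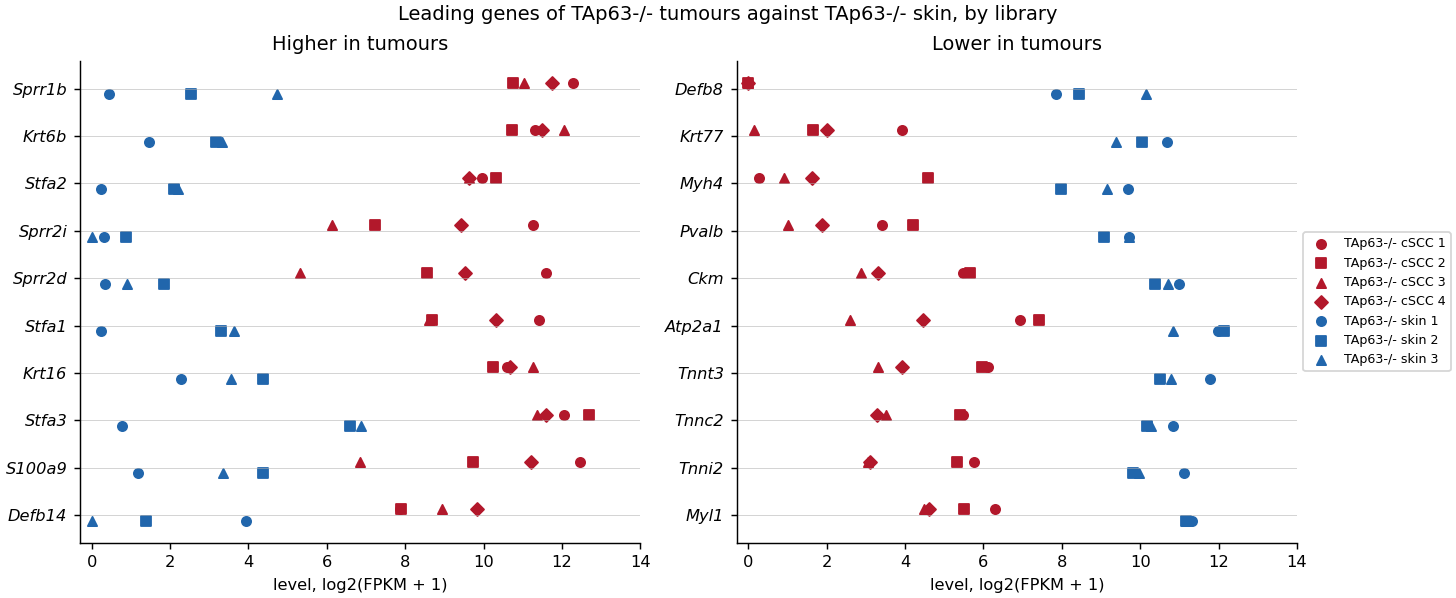
Level of the 10 genes with the largest increase (left) and the 10 with the largest fall (right) in each TAp63-/- library, on a log2(FPKM + 1) axis. Red points are the 4 tumours and blue points the 3 skins, with 1 marker shape per library. In every gene shown the tumour and skin points do not overlap, as the rule for choosing them required, and Defb8 is listed at 0 in all 4 tumours.

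Sprr1b encodes a small proline-rich protein that is cross-linked into the envelope of stressed keratinocytes. It lies at chromosome 3, 92436809 to 92438779 (mm10). Its level was 4970, 1725, 2103 and 3420 FPKM in the tumours and 0.351, 4.80 and 25.5 in skin, or 3055 ± 1469 (SD, n = 4) against 10.2 ± 13.4 (SD, n = 3). All tumours were above all skins, and the log2 change of 8.89 (SE 0.97, adjusted p = 0.000112) was the largest among the genes that met the rule for leading genes. Krt6b, an alarm keratin, had 2545, 1699, 4268 and 2875 FPKM in tumours and 1.78, 8.05 and 9.06 in skin (log2 change 8.74, SE 0.70, adjusted p = 2.07e-05). Krt16, its type I partner, had 1554, 1210, 2437 and 1620 FPKM in tumours against 3.87, 19.8 and 10.7 in skin (7.29, SE 0.57). The tumours spanned less than 3-fold in both keratins and far more in the Sprr2 genes. Sprr2i had 2437, 150.0, 69.2 and 685 FPKM in tumours and 0.245, 0.848 and 0 in skin. Sprr2d had 3085, 376, 38.8 and 735 FPKM in tumours and at most 2.61 in skin. In both of these genes tumour 1 was highest and tumour 3 lowest.

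Over the wound keratinocyte list, 15 of 18 tested genes rose and none fell, with a median log2 change of 6.33. The 3 that did not pass were Krt17, Sprr1a and Sprr3. Krt17 was already at 384, 523 and 771 FPKM in skin and at 880, 633, 545 and 1525 in tumours, so its groups overlapped. Sprr1a was likewise high in skin, at 561, 1168 and 1790 FPKM. Sprr3 was listed at 0 in all skins and reached 42.7 FPKM in tumour 1, with 2.96, 0 and 0.8292 in the others. The list held 13 to 16 calls when 1 TAp63-/- library was left out and 14 with sex as a term. Genes of the stefin cluster, inhibitors of cysteine proteases found in neutrophils and keratinocytes, rose with it. Stfa3 had 4268, 6594, 2639 and 3085 FPKM in tumours and 0.705, 95.4 and 115 in skin (log2 change 7.19). Stfa1 had 2748, 411, 392 and 1269 FPKM against 0.185, 8.77 and 11.3 (7.38). The Sprr2, Stfa and Krt6 genes each have near-identical neighbouring copies among which the authors' counting could split reads, so the values of single members are uncertain. S100a8 and S100a9, the 2 chains of calprotectin made by neutrophils and stressed keratinocytes, rose by 6.61 and 7.10. S100a9 had 5585, 846, 115 and 2358 FPKM in tumours against 1.25, 19.6 and 9.14 in skin, with tumour 1 again highest and tumour 3 lowest. Defb14, an antimicrobial β-defensin of keratinocytes, had 234, 237, 490 and 909 FPKM against 14.3, 1.62 and 0 (6.86). In contrast, Defb8 was listed at 0 in all 4 tumours and stood at 228, 345 and 1137 FPKM in skin.

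The promoter of Sprr1b is shown because it leads the increases and holds a match to the AP-1 motif TGANTCA, the site bound by Fos and Jun proteins. The promoter of Mmp10, a matrix metalloproteinase that keratinocytes make at wound edges, is shown beside it. Each run gives bases 250 to 1 before the start of the gene from RefSeq (GRCm38.p6), 5′ to 3′ on the strand of the gene, with the motif in capitals. Sprr1b is on the minus strand at chr3:92438780-92439029 and Mmp10 on the plus strand at chr9:7502092-7502341.
Sprr1b: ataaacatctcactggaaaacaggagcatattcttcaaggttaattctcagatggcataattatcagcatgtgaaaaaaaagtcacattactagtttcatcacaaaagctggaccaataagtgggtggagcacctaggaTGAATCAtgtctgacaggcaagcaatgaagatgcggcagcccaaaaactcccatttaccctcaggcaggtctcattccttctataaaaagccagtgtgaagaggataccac
Mmp10: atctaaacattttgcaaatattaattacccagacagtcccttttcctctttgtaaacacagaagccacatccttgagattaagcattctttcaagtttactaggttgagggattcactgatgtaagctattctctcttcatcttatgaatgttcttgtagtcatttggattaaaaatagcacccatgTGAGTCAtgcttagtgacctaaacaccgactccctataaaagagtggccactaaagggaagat

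The Sprr1b match began 111 bases before the start and the Mmp10 match 63 bases before it. On either strand, TGANTCA was found in 6.75% of the 32851 promoters of this length in the table, in 5.41% of the 13065 promoters of tested genes, in 6.43% of those of genes that rose and in 6.73% of those of genes that fell. It was found in 6 of 13 promoters of the wound list and in 8 of 16 of the matrix protease list. The 4 matches in Sprr2d, Sprr2e, Sprr2f and Sprr2h all began 193 to 198 bases before the start, in neighbouring copies that are not independent. In the protease list the matches of Mmp13, Mmp10, Mmp1b and Plaur, genes that rose, began 35, 63, 93 and 69 bases before the start. Mmp3, Mmp12 and Mmp1a, which did not pass the test, also held a match. A match describes the letters and is not evidence of binding.

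Among AP-1 genes themselves, Fosl1, which encodes the Fos family member Fra-1, had 5.47, 9.67, 9.78 and 11.9 FPKM in tumours and 0.581, 0.0314 and 0.160 in skin (log2 change 3.00, SE 0.24, adjusted p = 2.1e-05). Junb, its partner in keratinocytes, had 121, 95.0, 78.8 and 145 FPKM against 34.1, 39.3 and 44.2 (1.43, SE 0.24). Both were above skin in every tumour and kept their calls in all settings checked. For the tumour-skin change of single genes, these settings did not include leaving out 1 WT library. Fos, Jun and Jund did not pass the test, and their groups overlapped. Of the 14 immediate-early genes, those that respond to a stimulus without new protein, 3 rose, and Egr2 fell by 2.24 on the log2 scale. Over all genes 13% rose and 14.2% fell, so these are given as single genes and not as a result of the list.

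The matrix metalloproteinases cut collagen and other matrix proteins, and the plasminogen activators act upstream of several of them. Of 18 tested genes of matrix proteolysis, 7 rose and 2 fell (median log2 change 0.93). Mmp13, the collagenase of rodent wounds and tumours, had 21.5, 294, 177 and 372 FPKM in tumours and 0.0643, 2.96 and 1.01 in skin (6.15, SE 0.93, adjusted p = 0.000816). Mmp10 had 3.10, 20.2, 51.3 and 64.8 FPKM in tumours and at most 0.415 in skin (4.15). In both genes tumour 1 was the lowest tumour, although it too lay above all skins. Adam8 (2.67), Plau (1.60) and its receptor Plaur (1.62) also rose. Mmp2 and Ctsk, proteases of fibroblasts, fell by 1.62 and 2.45. The list held 4 to 8 rises without 1 TAp63-/- library and 3 with sex as a term. Among protease inhibitors Slpi rose by 4.20 and Timp1 by 2.43, while Timp2, Timp4 and Reck fell by 2.31, 1.55 and 1.65.

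Basal keratinocyte genes, those of the layer that anchors and renews the epidermis, mostly rose. A total of 9 of 13 rose and 1 fell, with a median log2 change of 1.83. Krt14 had 6594, 4268, 14287 and 8072 FPKM in tumours and 886, 1245 and 946 in skin (log2 change 2.90, SE 0.43, adjusted p = 0.00079). Its type II partner Krt5 rose less, from 1883, 1461 and 1298 FPKM in skin to 2875, 2685, 3855 and 2545 (0.95, SE 0.22). The subunits of α6β4 integrin, which hold basal cells to the basement membrane, both rose (Itga6 2.22, Itgb4 2.02). Lama3, a laminin chain of the basement membrane, rose with them, from 5.27, 4.74 and 3.77 FPKM in skin to 18.9, 24.9, 58.9 and 44.7 (2.63), and so did Lamb3 (1.83). Tumour 3 was the highest tumour for Krt14, Itga6, Itgb4, Lama3 and Lamb3. Krt15, a basal keratin lost from activated epidermis and kept in the follicle bulge, went the other way. It fell from 1085, 671 and 443 FPKM in skin to 27.5, 53.4, 17.3 and 32.6 (-4.46, SE 0.44, adjusted p = 6e-05). Of the list, 6 to 8 genes rose without 1 TAp63-/- library and 1 rose with sex as a term.

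Trp63 had 245, 109, 164 and 258 FPKM in tumours and 111, 98.2 and 84.5 in skin. Its log2 change was 0.90 (SE 0.29, adjusted p = 0.0377), and the groups overlapped, since tumour 2 lay below skin 1. The call was lost without tumour 1, 3 or 4 and without any skin (adjusted p up to 0.116), and also with sex as a term (adjusted p = 0.0632). Trp73 (log2 change 1.22, adjusted p = 0.0569) and Trp53 (0.36, adjusted p = 0.373) did not pass the test.

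The cornified envelope and its keratins mark the upper, dying layers of epidermis. Of 25 tested genes of these layers, 9 fell and 2 rose (median log2 change -1.03). Krt77, a type II keratin of the suprabasal epidermis, fell furthest: it had 14.2, 2.11, 0.105 and 3.01 FPKM in tumours and 1651, 1063 and 671 in skin (-8.12, SE 0.69, adjusted p = 2.48e-05). Lce1m, an envelope protein, had 7.21, 2.85, 0.689 and 3.84 FPKM against 301, 136 and 111 (-5.38). Flg2, a filaggrin-like protein, had 2.31, 2.04, 0.531 and 2.14 FPKM against 121, 79.3 and 39.6 (-4.80). Tumour 3 was the lowest tumour in each of these 3 genes. Lor (-2.58) and Krt10 (-2.75) also fell, whereas Flg (0.22), Ivl (-0.22) and Krt1 (0.10) did not pass and their groups overlapped. The rises were of Tgm3, a transglutaminase of hair and cornified cells (4.05), and Rptn (2.64). The falls numbered 5 without skin 1 or skin 2 and 3 with sex as a term, the rises 0 without skin 1 and 1 without skin 2 or with sex as a term, and the median was -0.56 without tumour 3. Of 12 genes of barrier lipid synthesis, 3 rose, among them Cers3, a ceramide synthase listed in the table as Lass3 (1.20), and Ugcg (0.77), and Elovl4 fell by 1.87. The barrier lipid rises numbered 1 without skin 2 or skin 3 and with sex as a term, and the median of 0.26 was 0.09 without tumour 1.

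**Figure D2:**
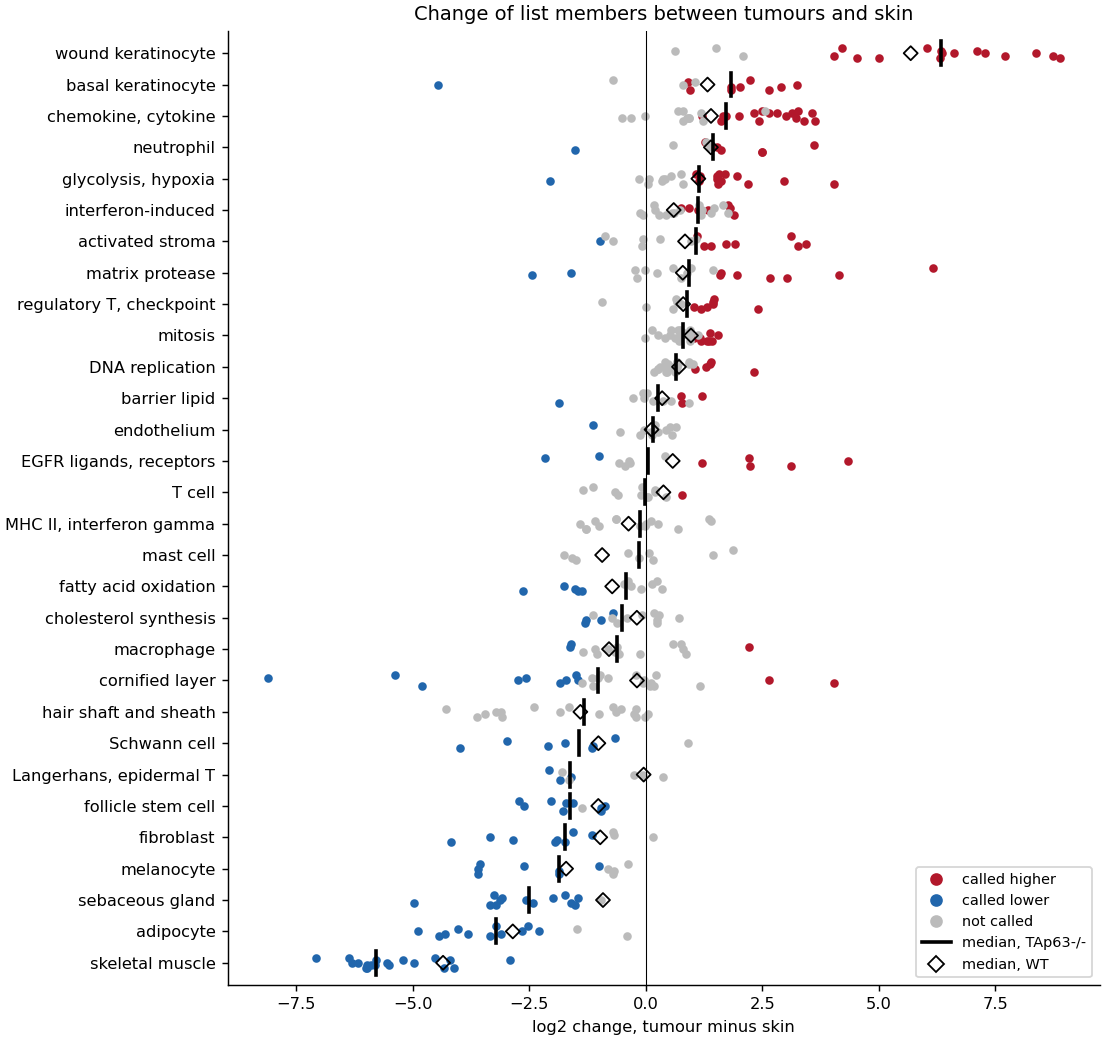
Tumour minus skin change of every tested member of the larger lists, in log2 of (FPKM + 1). Each point is a gene, red where it rose, blue where it fell and grey where it did not pass the test. The black bar is the median of the list in TAp63-/- mice and the open diamond its median in WT mice. The skeletal muscle list lies wholly below 0 with a median of -5.80, and the wound keratinocyte list has a median of 6.33.

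Genes of the skin appendages were mostly lower in tumours. In the sebaceous gland list, lipid enzymes and receptors of the oil gland, 13 of 14 fell (median log2 change -2.51), and the remaining one, Soat1, had a change of -0.97 (adjusted p = 0.0716). Scd3, a fatty acid desaturase, had 9.70, 0.531, 0.820 and 4.13 FPKM in tumours and 127, 122 and 85.0 in skin (-4.97, SE 0.69, adjusted p = 0.000499). Awat2, which makes wax esters, had 2.93, 1.11, 0.995 and 2.60 FPKM against 29.1, 20.6 and 19.3 (-3.09). Tumour 3 had the lowest mean of the list, 2.64 on the log2 scale against 3.81 to 4.01 in the other tumours and 6.10 to 6.16 in skin. The falls numbered 11 to 13 without 1 TAp63-/- library and 5 with sex as a term. Markers of follicle stem and progenitor cells fell in 9 of 10 cases, in 6 to 8 without 1 TAp63-/- library and in 5 with sex as a term. Cd34, of the bulge, had 12.8, 39.5, 15.1 and 15.9 FPKM against 136, 137 and 92.0 (-2.61). Lhx2 (-2.73), Lgr5 (-1.78) and Tcf7l1 (-1.72), factors and a receptor of the same cells, fell too, and Lgr6 (-1.37, adjusted p = 0.165) was the member that did not pass.

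Genes of the hair shaft and root sheath, mostly keratins, gave no call among 18 with limma (1 had an unadjusted p below 0.05), and both groups were split. Krt71, of the inner root sheath, had 2.71, 118, 0.12 and 2.56 FPKM in tumours and 2.66, 439 and 1245 in skin. Krt25 had 1.003, 57.1, 1.21 and 11.1 FPKM in tumours and 2.41, 273 and 846 in skin. In both genes skin 1 lay far below the other skins and below tumour 2, and no tumour reached skins 2 and 3. Padi3, which is not a keratin, departed from this, with 83.8 FPKM in tumour 3 against 0.0471, 12.6 and 42.2 in skin. The median change of the list was -1.33 and moved from -2.28 without skin 1 to -0.28 without skin 3. Of melanocyte genes, which follow the growing hair, 7 of 11 fell (median -1.86). Mlana had 1.11, 1.01, 0 and 0.878 FPKM in tumours and 10.2, 19.3 and 33.1 in skin (-3.55). Skin 1 was the lowest skin in Dct, Tyrp1, Pmel and Mlana. The falls numbered 9 without skin 1, 4 to 6 without 1 of the other TAp63-/- libraries and 0 with sex as a term (9 of the 11 genes had an unadjusted p below 0.05 without that term).

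Skeletal muscle genes moved one way, with 19 of 19 tested genes lower in tumours and a median of -5.80. Dorsal mouse skin carries a thin muscle sheet, the panniculus carnosus, below its fat. Myh4, a fast myosin, had 0.218, 23.1, 0.886 and 2.07 FPKM in tumours and 822, 252 and 566 in skin (-7.09, SE 1.22, adjusted p = 0.00185). Ckm, creatine kinase of muscle, had 43.7, 49.5, 6.31 and 8.95 FPKM against 2031, 1335 and 1678 (-6.36). Des, the muscle intermediate filament, had 13.2, 6.23, 8.77 and 4.92 FPKM against 178, 170 and 178 (-4.32, SE 0.29, adjusted p = 7.54e-06). Pvalb, a calcium buffer of fast fibres, had 9.72, 17.3, 1.003 and 2.69 FPKM against 846, 539 and 831 (-6.88). Tumours 1 and 2 had more muscle RNA than tumours 3 and 4, with list means of 4.29 and 3.82 against 2.24 and 2.62 on the log2 scale, and all skins lay at 8.41 to 9.11. The falls numbered 18 or 19 without 1 TAp63-/- library and 17 with sex as a term. Aldoa, the aldolase of muscle, fell by 2.05 while the other glycolytic genes rose or did not pass.

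Fat, nerve and dermal matrix genes were lower as well. Of adipocyte genes 11 of 13 fell (median -3.22). Adipoq, the fat hormone adiponectin, had 4.41, 6.37, 0.545 and 1.77 FPKM in tumours and 234, 37.2 and 53.2 in skin (-4.44). Skin 1 was the highest skin in 13 of 13 of these genes. Fabp4, a fatty acid carrier that macrophages and vessels also make, had 1320, 2639, 51.8 and 368 FPKM in tumours and 1969, 352 and 451 in skin, with no call. With sex as a term 3 adipocyte genes fell. Schwann cell genes fell in 7 of 8 cases, with a median of -1.45, and in 5 with sex as a term. Fibroblast genes fell in 8 of 11 cases (median -1.75). Dcn, the proteoglycan decorin, had 67.2, 102, 33.1 and 64.8 FPKM against 1554, 1195 and 817 (-4.19, SE 0.43). The fibrillar collagens Col1a1 (-1.56) and Col3a1 (-1.90) fell less. Of endothelial genes 1 of 12, Tek, fell (-1.14), a call lost with sex as a term, and the median was 0.16.

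Genes of activated stroma, matrix and signals made in wounds, rose against the fall of the resting fibroblast genes. A total of 8 of 16 rose and Fap fell (median 1.08). Tnc, tenascin-C, had 22.7, 68.9, 52.5 and 70.5 FPKM in tumours and 0.682, 5.04 and 8.68 in skin (3.44, SE 0.62, adjusted p = 0.00248). Col12a1 had 44.3, 185, 112 and 128 FPKM against 4.24, 14.2 and 21.9 (3.11). Postn was even among tumours, at 378, 466, 384 and 376 FPKM, and stood at 57.4, 217 and 270 in skin (1.41). Spp1, osteopontin, rose in all tumours but was 886 FPKM in tumour 2 and 27.1 to 46.2 in the others. Skin 1 was the lowest skin for Tnc, Col12a1, Postn and Spp1, and 4 genes rose without it. With sex as a term 1 rose.

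Ligands of the EGF receptor family, which drive keratinocyte growth and migration, split into 5 that rose and 2 that fell among 12 tested ligands, receptors and feedback genes, and into 2 and 1 with sex as a term. Epgn, epigen, had 43.6, 104, 169 and 136 FPKM in tumours and 5.65, 3.33 and 3.48 in skin (4.34, SE 0.53, adjusted p = 0.000224). Hbegf had 33.1, 15.8, 22.8 and 30.6 FPKM against 1.60, 1.75 and 2.59 (3.12). Nrg1, a ligand of Erbb3 and Erbb4, had 1.93, 3.502, 8.56 and 4.74 FPKM and at most 0.172 in skin (2.23). Areg (2.22) and Tgfa (1.21) rose too. Btc fell from 21.4, 9.56 and 4.98 FPKM to 1.05, 2.06, 1.08 and 2.09 (-2.16), and Egf by 1.01. The receptors did not pass the test: Egfr had a change of -0.46, Erbb2 of -0.34 and Erbb3 of -0.35.

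Cytokines and chemokines rose broadly. Of 29 tested genes, 17 rose and none fell (median log2 change 1.72). Il24 and Il19, members of the IL-20 family that act on keratinocytes, were listed at 0 in all skins. Il24 had 4.83, 9.62, 28.1 and 12.1 FPKM in tumours and Il19 had 11.4, 2.93, 5.08 and 18.7. Cxcl5, a neutrophil attractant, was even among tumours at 4.13, 6.09, 5.64 and 6.16 FPKM and at most 0.105 in skin (2.64, SE 0.26, adjusted p = 6.13e-05). Il1a had 18.4, 9.02, 14.7 and 16.3 FPKM against 2.66, 1.497 and 2.06 (2.32). Cxcl1, Cxcl2, Cxcl3 and Il1b rose by 3.01 to 3.397, and in each of these 4 genes tumour 2 was highest. Tslp, the epithelial cytokine that starts allergic inflammation, had 13.99, 232, 7.21 and 10.6 FPKM against 2.07, 0.834 and 0.506 (3.56, SE 0.92). Counts without 1 TAp63-/- library ran from 11 to 20 rises, the latter without tumour 3, and 7 rose with sex as a term.

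Neutrophil genes rose in 6 of 10 cases, and Il1r2 fell. Cxcr2, the receptor for the chemokines above, had 8.56, 9.06, 3.68 and 5.68 FPKM in tumours and 0.0667, 0.517 and 0.404 in skin (2.49, SE 0.28, adjusted p = 0.000123). Stfa2l1 rose by 3.62. The granule genes Ngp, Camp, Ltf and Ly6g were below the filter on low values. The rises numbered 2 without skin 1, 3 without skin 2 and 2 with sex as a term. Macrophage genes mostly did not pass, with 1 rise and 2 falls of 16 (median -0.62). Arg1, made by macrophages and keratinocytes, had 109, 48.8, 36.6 and 65.3 FPKM against 12.1, 15.2 and 9.72 (2.21, SE 0.33), while Cd163 and Mrc1, of resident macrophages, fell by 1.61 and 1.64. Without tumour 2, which was the highest tumour for 15 of the 16 genes, 8 fell, and none fell without skin 1 or with sex as a term. The median ran from -1.03 to -0.33 without 1 TAp63-/- library. T cell genes gave 1 rise in 12 (Cd5, 0.78), which was lost without tumour 1, 3 or 4 and without skin 1 or 2. Regulatory T cell and checkpoint genes rose in 7 of 14 cases (median 0.89) and in 3 with sex as a term. Foxp3, the factor of regulatory T cells, had 2.89, 2.21, 0.992 and 1.77 FPKM against 0.208, 0.407 and 0.204 (1.18, SE 0.25, adjusted p = 0.00598), and Tnfrsf9 had 7.59, 12.8, 3.86 and 7.33 against 0.383, 0.393 and 1.01 (2.41). Of 8 genes tied to the resident immune cells of the epidermis, among them the keratinocyte gene Skint1, 3 fell and 5 did not pass. Those 3 were Cd207, langerin (-1.85), Epcam (-1.62) and Xcl1, of dendritic epidermal T cells (-2.07). B cell markers were below the filter, apart from Jchain with no call. Mast cell genes gave no call among 9 (4 had an unadjusted p below 0.05, limma), and class II genes none among 15 (3 had an unadjusted p below 0.05). Without tumour 2, 1 mast cell gene rose and 3 fell, and 2 class II genes fell. In the class II list tumour 3 was lowest: Cd74 had 545, 571, 65.7 and 294 FPKM in tumours and 1002, 608 and 531 in skin.

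**Figure D3:**
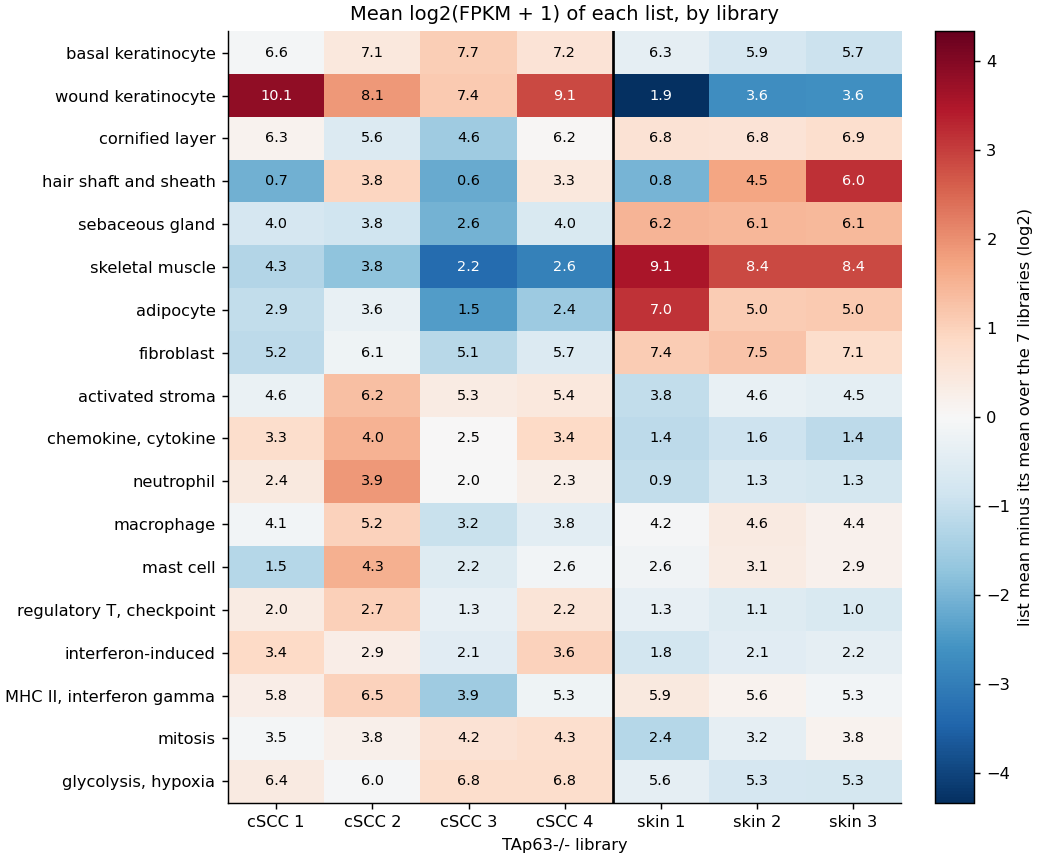
Heat map of the mean log2(FPKM + 1) of each list (rows) in the 4 TAp63-/- tumours and 3 skins (columns), with the mean printed in each cell and colour giving its difference from the mean over the 7 libraries. The hair list is split within both groups, the adipocyte list is highest in skin 1 at 7.05, and the muscle list is at 8.41 or more in each skin and at 4.29 or less in each tumour.

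Genes induced by interferon rose in 7 of 23 cases and none fell (median 1.12). Rsad2, viperin, had 4.598, 4.76, 1.49 and 5.36 FPKM in tumours and 0.836, 1.40 and 1.37 in skin (1.12, SE 0.32, adjusted p = 0.0255). Tumour 3 was close to skin here and was the lowest tumour in 20 of the 23 genes. Without tumour 3, 15 genes rose. The number was 2 without tumour 4 or any 1 skin, and 3 without tumour 1 or with sex as a term. Oas1a and Oas1g, sensors of double-stranded RNA, kept their calls in all settings checked (1.76 and 1.88). The Rsad2 promoter is shown because it holds the interferon response motif GAAANNGAA, on the reverse strand and so written from its complement, 119 bases before the start. It is on the minus strand at chr12:26456453-26456702, bases 250 to 1 before the start, with the motif in capitals.
Rsad2: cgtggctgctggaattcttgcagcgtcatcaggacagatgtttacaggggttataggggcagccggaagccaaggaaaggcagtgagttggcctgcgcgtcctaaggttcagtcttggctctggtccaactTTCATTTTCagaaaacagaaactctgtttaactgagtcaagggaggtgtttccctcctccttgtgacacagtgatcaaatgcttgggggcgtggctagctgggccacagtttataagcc

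The motif was found on either strand in 10 of 18 promoters of the interferon list, in 7.13% of all promoters of this length and in 6.25% of those of genes that rose. Among genes that rose, Oas1a, Oas1g and Oas3 held it 2 times each, and Isg15, Ifit1 and Ifit3, which did not pass the test, 3 times each.

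Of mitosis genes 8 of 28 rose and none fell, with a median of 0.80. Cdc20, the activator of the anaphase-promoting complex, had 25.3, 39.3, 36.01 and 42.2 FPKM in tumours and 7.89, 13.0 and 20.8 in skin (1.37, SE 0.29, adjusted p = 0.00628). Birc5, survivin, rose by 1.55 and Aurka by 1.36. Mki67 had 18.96, 24.6, 19.9 and 27.4 FPKM against 6.34, 15.2 and 24.7, and its groups overlapped. Skin 1 was the lowest skin in 27 of 28 of these genes, and its list mean was 2.36 against 3.22 and 3.76 in skins 2 and 3. Without skin 1 the rises numbered 1 and the median was 0.42, without skin 2 or tumour 4 they numbered 3, and with sex as a term none rose. DNA replication genes rose in 5 of 25 cases (median 0.64), beside 13% of all genes. In 4 of the 25 the tumours lay entirely above the skins, beside 17.8% of all genes. Skin 1 was the lowest skin in 24 of the 25. The rises numbered 2 without skin 1, skin 2 or tumour 3, 3 without tumour 2 or 4 and 1 with sex as a term, and the median was 0.35 without skin 1. Ccne1, cyclin E1, had 21.4, 7.42, 10.4 and 10.1 FPKM against 0.584, 1.91 and 2.31 (2.33, SE 0.37, adjusted p = 0.00112) and kept its call in all settings checked.

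The Cdc20 promoter is shown for the cell cycle homology region motif TTTGAA, which began 18 bases before the start. It is on the minus strand at chr4:118437344-118437593, bases 250 to 1 before the start, with the motif in capitals.
Cdc20: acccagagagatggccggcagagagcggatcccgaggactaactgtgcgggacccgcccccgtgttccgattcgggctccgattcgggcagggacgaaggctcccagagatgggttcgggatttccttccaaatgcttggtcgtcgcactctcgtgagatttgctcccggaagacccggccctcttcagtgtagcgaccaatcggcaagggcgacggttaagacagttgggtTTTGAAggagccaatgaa

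This motif was found on either strand in 9 of 24 promoters of the mitosis list, in 16.0% of all promoters and in 10.8% of those of genes that rose. Of the 9 genes, Cdc20 was the one that rose. The E2F motifs TTTCCCGC and TTTGGCGC were found in 5 of 23 promoters of the replication list and 1.30% of all promoters.

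Of 15 regulators of the G1 phase 2 rose and 4 fell, the rises at a share near that over all genes (13%). With sex as a term 0 rose and 1 fell, and 2 fell without skin 1 or skin 2. Cdk6 (chromosome 5, 3343893 to 3523218), a kinase that starts the cycle, had 15.7, 28.6, 29.6 and 23.9 FPKM in tumours and 6.99, 8.84 and 6.22 in skin (1.58, SE 0.27, adjusted p = 0.00165). Cdkn2a, the locus of p16 and p19Arf, had 28.1, 53.9, 49.0 and 38.7 FPKM against 4.28, 11.4 and 6.90 (2.39, SE 0.50). The inhibitors Cdkn1b (-1.01), Cdkn1c (-1.55) and Cdkn2c (-1.16) and the cyclin Ccnd2 (-1.38) fell. Cdk6 and Cdkn2a lost their calls with sex as a term. Of 19 p53 targets, 4 rose and 3 fell (median -0.05), beside 13% and 14.2% of all genes. Of these targets 2 rose without skin 1 or 2 and with sex as a term. Pmaip1, the death factor Noxa, had 14.2, 46.9, 31.9 and 23.7 FPKM against 1.77, 2.91 and 3.15 (2.96, SE 0.33, adjusted p = 0.000124), and the death receptor Tnfrsf10b rose by 1.41. Ccng1 (-1.76), Eda2r (-1.70) and Sesn1 (-0.85) fell. The best known target, Cdkn1a, had 83.6, 67.3, 81.4 and 95.4 FPKM in tumours and 125, 113 and 120.1 in skin and did not pass (-0.55, adjusted p = 0.129).

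Glucose uptake, glycolysis and hypoxia genes rose in 13 of 23 cases and 1, Aldoa, fell (median 1.15). Slc2a1, the glucose transporter of basal keratinocytes, had 1168, 401, 1101 and 1245 FPKM in tumours and 55.4, 67.7 and 40.3 in skin (4.04, SE 0.40, adjusted p = 6.28e-05). Tumour 2 was well below the other 3 and still above all skins. Pkm had 633, 700.3, 812 and 756 FPKM against 321, 338 and 317 (1.15, SE 0.17). Vegfa, the vessel growth factor, rose by 2.18, and Car9, a carbonic anhydrase of hypoxic cells, by 2.97. Ldha (0.36) and Gapdh (-0.14) did not pass. The rises numbered 10 to 15 without 1 TAp63-/- library and 7 with sex as a term. Fatty acid oxidation genes fell in 5 of 12 cases and in 3 with sex as a term, among the 5 the muscle form Cpt1b (-2.63) and the fat and muscle regulators Ppara (-1.46) and Ppargc1a (-1.52). Of 14 sterol synthesis genes 4 fell, among them Fdps, Hmgcs1 and Lss, by 0.71 to 1.31. The falls numbered 1 without skin 3 and 2 without skin 1. In the Nrf2 list of antioxidant genes 4 of 12 rose, led by Txn1, thioredoxin (2.37), and 2 fell. The Nrf2 rises numbered 1 without skin 1 and 2 without skin 3, tumour 1 or tumour 3 and with sex as a term.

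Smaller pathway lists held few calls, none of their medians exceeded 1 in size, and most of their counts fell with sex as a term. Rises and falls numbered 2 and 1 of 12 Notch genes and 3 and 2 of 17 Wnt genes. They numbered 0 and 1 of 7 hedgehog genes and 2 and 2 of 12 epithelial-mesenchymal genes. The list of imprinted and postnatal growth genes held 1 and 4 of 11 and the circadian list 1 and 2 of 13. Apart from the falls in the list of imprinted and postnatal growth genes, these shares were near or below those over all genes (13% rose and 14.2% fell). The members below are thus single genes and not results of their lists. In the Notch list, receptors and ligands of epidermal differentiation, Notch1 fell by 1.13 while its ligands Jag1 and Dll4 rose by 1.29 and 0.92. Wnt4, Wnt5a and Wnt10a rose by 1.69, 1.73 and 1.18, and Lgr5 and Wif1 fell. The hedgehog target and receptor Ptch1 fell by 1.45. Of the epithelial-mesenchymal list, Snai2 rose by 1.56 and Cdh3, P-cadherin of basal cells, by 1.81, while the mesenchymal genes Zeb2 and Vim fell by 1.88 and 1.51. Cdh1, E-cadherin, did not pass (-0.34). Of the imprinted genes Ndn fell by 2.10 and Mest rose by 1.5, and the postnatal growth genes Ghr and Igf1 fell by 2.62 and 1.47. Among circadian genes Clock rose by 0.62 and Dbp and Cry2 fell by 1.38 and 0.85. Of the 6 genes that the study itself is known to have followed up, Aurka, Cdk6, Fat2, Kif18b and Orc1 rose and Pkmyt1 did not pass (0.63, adjusted p = 0.066). Those genes were chosen by the study on these samples, so their count is not independent evidence. Fat2, an atypical cadherin of keratinocytes, had 22.0, 14.4, 14.6 and 19.1 FPKM against 7.80, 5.70 and 4.87 (1.38, SE 0.22). It was the member of the 6 that kept its call in all settings checked. Without skin 1 or skin 2, 3 of the 6 rose.

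The tumour-skin change was then compared between genotypes, by the interaction of genotype and tissue. Sex changed fully with tissue in WT mice and in part in TAp63-/- mice, so a difference between genotypes can also hold one of sex. With limma, 4 of 14752 genes (0.0271%) differed, and 444 had an unadjusted p below 0.05. None of the 622 genes on the lists was among the 4 (26 had an unadjusted p below 0.05). List medians in TAp63-/- and in WT mice are therefore given side by side, with no difference between them called. They were 6.33 and 5.68 for the wound list, -5.80 and -4.35 for muscle, 1.83 and 1.32 for basal keratinocytes and 1.15 and 1.13 for glycolysis. Further pairs were those of the sebaceous list (-2.51 and -0.92, with 7 of 14 members at an unadjusted interaction p below 0.05), the Langerhans and epidermal T cell list (-1.63 and -0.05) and the cornified layer (-1.03 and -0.19). The WT medians rest on 2 tumours, which were split in these lists. In WT tumours 1 and 2 the sebaceous list mean was 4.32 and 5.66 on the log2 scale, beside 5.60 to 6.07 in WT skin. The Langerhans list had 1.97 and 2.92 and the cornified layer 5.46 and 7.03 in the same tumours. At 1513 of the 4017 genes called in TAp63-/- mice (14752 tested), the change was also called in WT mice with the same direction.

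The 4 genes were Skint9, Skint3, Skint4 and Zfp618, all on chromosome 4. Proteins of the Skint family are immunoglobulin-like and sit in keratinocyte membranes, and Skint1 is needed for the γδ T cells of mouse epidermis. Skint9 (112385969 to 112433985) had 1.25, 1.31, 0.395 and 1.52 FPKM in TAp63-/- tumours and 72.9, 102 and 54.0 in TAp63-/- skin. In WT mice it had 4.18 and 3.42 FPKM in tumours and at most 0.0369 in skin. It thus fell in TAp63-/- tumours (log2 change -5.18, SE 0.25, adjusted p = 1.35e-06), and the interaction was -7.40 (SE 0.39, adjusted p = 1.47e-05), which held in all settings tried. Skint3 had 16.1, 7.79, 3.46 and 9.28 FPKM in TAp63-/- tumours, 47.4, 59.6 and 29.0 in TAp63-/- skin, 7.57 and 15.1 in WT tumours and at most 0.0186 in WT skin (interaction -5.83, SE 0.64, adjusted p = 0.0119). Skint4 had 3.80, 1.02, 0.759 and 3.29 FPKM, then 19.2, 22.1 and 15.9, then 2.41 and 2.84, and at most 0.0209 (-4.61, SE 0.52, adjusted p = 0.0119). In all 3 genes the genotypes were apart in skin. In tumours they overlapped for Skint3 and Skint4, whereas for Skint9 both WT tumours lay above all 4 TAp63-/- tumours. Skint3 and Skint4 lost the call without WT tumour 2, WT skin 2 or TAp63-/- skin 2 (adjusted p up to 0.0748), and Skint3 also with a pseudocount of 10 (adjusted p = 0.0863). Skint genes resemble each other, so reads could be split among them. Of their neighbours, named after their values were seen, Skint2 fell in TAp63-/- tumours (log2 change -3.05, adjusted p = 0.000396). Skint1 had 19.7, 2.71, 1.24 and 12.7 FPKM in tumours and 20.9, 30.1 and 20.2 in skin and did not pass (-1.81, adjusted p = 0.0586).

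Zfp618 (62965573 to 63139708), a zinc finger protein, had an interaction of the same sign, but its genotypes were apart in tumours and overlapped in skin. It had 0.280, 0.242, 0.576 and 0.153 FPKM in TAp63-/- tumours and 0.136, 0.349 and 0.568 in TAp63-/- skin, with no change (-0.04, adjusted p = 0.926). WT tumours had 19.03 and 11.3 FPKM and WT skin 1.09, 0.753 and 0.175, and the interaction was -3.31 (SE 0.40, adjusted p = 0.0163). It was lost with a pseudocount of 0.1 (adjusted p = 0.627), with a filter of 5 FPKM (0.465), with sex as a term (0.056) and without each of several libraries (up to 0.0815).

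**Figure D4:**
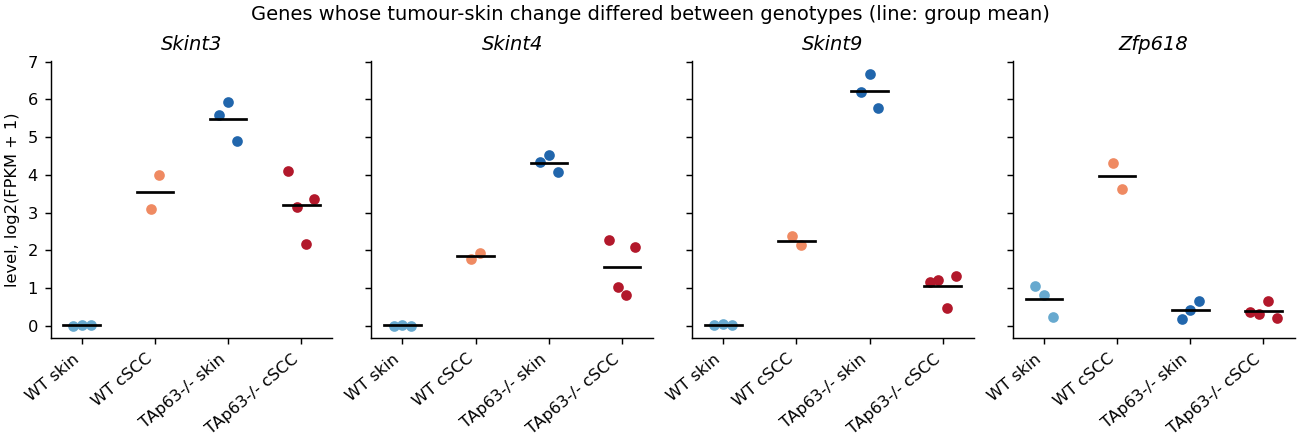
Level of the 4 genes whose tumour-skin change differed between genotypes, in all 12 libraries on a log2(FPKM + 1) axis. Points are single libraries and lines are group means. The 3 Skint genes are highest in TAp63-/- skin and near 0 in WT skin, and Zfp618 is highest in the 2 WT tumours.

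The 4 tumours differed among themselves along several lists at once, described here with no test. Tumour 1 had the highest mean of the wound list, 10.1 on the log2 scale, against 8.14, 7.39 and 9.11 in tumours 2 to 4. Tumour 2 was highest for the chemokine (4.01), neutrophil (3.91), macrophage (5.22), mast cell (4.28) and activated stroma (6.21) lists. Tumour 3 was highest for basal keratinocytes (7.70) and lowest for interferon, class II, sebaceous, adipocyte and muscle genes. The genes of widest range by the rule were mostly genes listed at 0 in some libraries, mitochondrial genes and small nuclear RNAs, so protein-coding genes above 0 in all tumours were listed instead, after the values were seen. Chi3l4, a chitinase-like protein of type 2 inflammation, had 186, 29.1, 0.0928 and 14.2 FPKM. Tpsab1, a mast cell tryptase, had 0.881, 138, 0.464 and 15.2 FPKM, and Mcpt1, a mast cell protease, 0.118, 69.6, 4.64 and 8.39. Gbp2, a GTPase induced by interferon γ, had 30.7, 606, 6.05 and 31.0 FPKM, and Cxcl9, induced by the same cytokine, 25.95, 179, 1.56 and 24.5. Car2 had 553, 14.4, 3.76 and 192 FPKM and Serpinb3a 326, 5.40, 3.16 and 18.6. Tpsab1, Mcpt1, Gbp2 and Cxcl9 thus peaked in tumour 2 and Chi3l4, Car2 and Serpinb3a in tumour 1, and tumour 3 was the lowest in each of the 7 but Mcpt1. These 7 were picked from a longer list, in which other genes went differently. Padi3 peaked in tumour 3 (83.8 FPKM), and Sostdc1 (214.6) and Uox (105.8) peaked in tumour 4.

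Tumours also differed from skin by chromosome. For each tumour the log2 difference from TAp63-/- skin was centred on its median over all tested genes, and the median was taken per chromosome, with each skin set against the other 2. In the skins no chromosome lay farther than 0.06621 from 0, whereas 28 of 80 values in the tumours exceeded that limit. Chromosome 5 (900 tested genes) was the one above that limit in all 4 tumours, at 0.17, 0.26, 0.41 and 0.17. There 23.4% of genes were called higher and 8.89% lower, against 13% and 14.2% over all genes. In windows of 20 Mb, tumour 3 lay above 0 in 8 of 8 windows of chromosome 5, tumours 1 and 2 in 7 and tumour 4 in 5, and the skins in 3 or 4. The WT tumours, set against WT skin, had 0.26 and 0.03 on this chromosome. The largest values elsewhere were those of chromosome 4 in tumour 3 (0.32, above 0 in 6 of 8 windows), chromosome 14 in tumour 2 (0.22), chromosome 8 in tumour 1 (0.19, with 0.24 in WT tumour 1), chromosome 6 in tumour 3 (-0.23), chromosome 19 in tumour 4 (-0.30, below 0 in 3 of 3 windows) and the X chromosome in tumour 2 (0.43, above 0 in 9 of 9 windows). The other 2 female tumours had -0.13 and -0.09 on the X chromosome. Single windows could vary more among the skins than whole chromosomes did. At 60 to 80 Mb of chromosome 6, skins 1 to 3 had 0.63, -0.34 and -0.42 and tumour 3 had -0.62. Several genes described above lie on chromosome 5: Cdk6, Epgn, Areg, Spp1, 5 of the 17 cytokine genes that rose (Cxcl1, Cxcl2, Cxcl3, Cxcl5 and Cxcl10) and 4 of the 7 interferon genes that rose (Oas1a, Oas1g, Oas3 and Oasl1). Without its genes on chromosome 5 the median of the interferon list was 0.74 and that of the cytokine list 1.42. The part of these shifts in the change of any single gene was not tested.

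**Figure D5:**
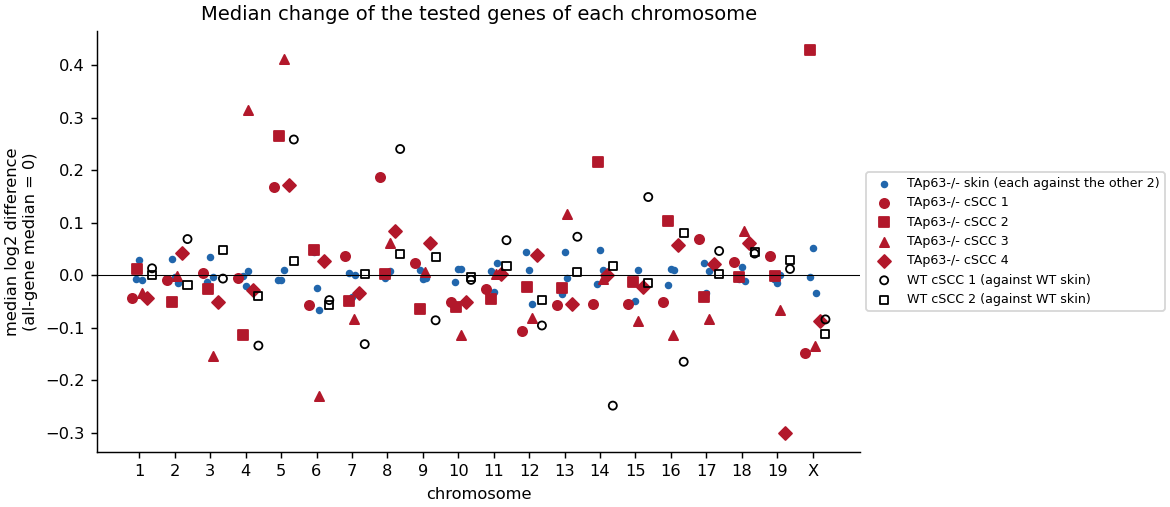
Median log2 difference from skin of the same genotype for each chromosome, centred on all tested genes of the library. Red symbols are the 4 TAp63-/- tumours, blue points the TAp63-/- skins, each against the other 2, and open symbols the 2 WT tumours. The skins stay within 0.07 of 0, chromosome 5 is above 0 in all 4 tumours, and the X chromosome of tumour 2 is the highest value at 0.43.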

How the data were processed

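The deposited table held 1 value per transcript entry and library for 37924 entries. The values were taken as FPKM, made by the authors with TopHat2 2.0 and Cufflinks 2.0 on mm10, per the submitters' processing notes; the unit and a quantile normalization were inferred from the values, since each library held nearly the same set of values and sum. Libraries were made from total RNA (Ambion miRVANA) with the Illumina TruSeq RNA kit, per the labels' protocols. Entries were summed per gene symbol (34303 symbols, 272 with more than 1 entry) and log2(FPKM + 1) was taken, so fold changes of low genes are understated. Genes at 1 FPKM or more in at least 2 of 12 libraries (14752) entered a linear model of 4 group means (limma 3.58.1, run under R 4.3.3; moderated variances with a trend on level; 8 residual degrees of freedom). Tests were two-sided, with Benjamini-Hochberg adjustment over all tested genes and a threshold of 0.05. The FPKM values carry no depth, so no counting interval is given.

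The comparison and 46 gene lists (656 of 665 entries matched) were chosen with earlier results of these data known. Genes were named by a rule: the 10 largest changes in each direction without overlap of the groups, up to 4 members of smallest p per list (or the 2 most abundant where fewer than 2 were called), the p53 family and 6 genes the study followed up, the called interaction genes, and the 10 genes of widest range over tumours. Other genes were picked after their values were seen. Alternatives covered the pseudocount, filter, scaling, trend, array weights, sex, the libraries fitted and leaving out each library. Krt85, Acta1, Il36a, Il36b, Il36g, Cdt1, Gins2, Rb1 and Mvd were not analysed here. Results of some further list members are not reported here.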

Additional observations from a re-analysis of the deposited data

Results flagged for a closer look

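In 13 of 181 named genes and 2 of 45 list means, 1 of the 4 TAp63-/- tumours lay apart from the other 3, by Dixon's ratio of the gap to the whole range at its 95% critical value. Chance gives about 1 in 20 such groups. The named genes include 10 chosen for their wide range over the tumours, of which 4 (mt-Atp6, mt-Atp8, mt-Co3 and U5) were among the 13. Without those 10 genes the count was 9 of 171, close to that share. Tumour 3 was the lowest in Cd3g, of the T cell receptor complex (1.093 FPKM against 4.415 to 4.833), in Il2ra (0.8241 against 3.242 to 3.589), in Rsad2 (1.494 against 4.598 to 5.362), in Flg2 (0.5306 against 2.044 to 2.311), in Mgst1 (32.06 against 50.53 to 53.85) and in Mlana, listed at 0 against 0.8778 to 1.111. It also had the lowest mean of the sebaceous gland list, 2.638 on the log2 scale against 3.813 to 4.012. Tumour 2 was the highest in Mrc1, the macrophage mannose receptor (23.99 FPKM against 5.851 to 6.6), and the lowest in Slc2a1 (400.6 against 1101 to 1245) and in the Schwann cell list mean (1.493 against 1.713 to 1.731). Tumour 4 was the highest in Tnfrsf10b (6.604 FPKM against 5.289 to 5.483).

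Some values of 0 stood beside very high ones. In tumour 1 mt-Atp6 was listed at 0 against 11167 to 15539 FPKM, mt-Co3 at 0 against 13128 to 17426 and mt-Atp8 at 0 against 108498 in each other tumour. U5, a small nuclear RNA, was listed at 0 in tumour 4 against 2195 to 10308 FPKM. A listed 0 can be a failed estimate.

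The tumour-skin change differed between TAp63-/- and WT mice by the interaction test for Skint9 (-7.401 on the log2 scale), Skint3 (-5.826), Skint4 (-4.607) and Zfp618 (-3.309).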

How the results depend on the processing

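The count of changed genes was 4017 and ranged from 2432 (without TAp63-/- skin 1) to 4446 (without TAp63-/- tumour 2) when 1 library was left out. Increases, 1920 in all, ranged from 944 to 2262, and falls, 2097, from 1488 to 2184. With sex as a term the counts were 1939, 872 and 1067, and 1557 of the 4017 calls were kept. With the 1 male tumour as the only tumour 1364 genes fell. With the 7 TAp63-/- libraries alone 1118 rose. The share of increases among calls was 47.8%, and 41.0% after rescaling by the median of ratios, 38.7% with mitochondrial and muscle genes left out, 40.7% with 7 libraries and 38.8% without skin 1. The interaction count of 4 ranged from 1 (without skin 2 of either genotype) to 15 (without WT tumour 1). Of 164 called named genes, 92 kept their call under all settings checked, which did not include leaving out 1 WT library. Uty and Eif2s3y, Y-linked genes, reversed to 0.36 and 0.11 with sex as a term and with the male tumour only. No paired analysis was possible because the replicate numbers are accession order only. The depth is unknown, so no detection limit was computed.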
